A study of Mus musculus with 14 samples.

Results

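The data set describes how the transcriptional response to doxorubicin differed between wild-type and p53-null mouse embryo fibroblasts (MEFs) of strain 129/Sv. For each gene the p53-null response (treated minus untreated) was subtracted from the wild-type response, both on a log2 scale. This difference of responses uses 10 of the 14 samples of the series. The 10 are 3 untreated and 3 treated wild-type libraries, and 2 untreated and 2 treated libraries labelled p53-/-. Treated cells received doxorubicin, a topoisomerase II poison that causes DNA double-strand breaks, at 0.2 µg/ml for 6 h. RNA was sequenced at its 3' ends after poly(A) selection. The labels number the replicates but do not say whether they came from separate embryos or cultures, nor how the p53 allele was made, so the p-values cover only the variation among these libraries, which may be technical. Levels are reads scaled to a fixed library size (CPM), and a response or a difference is a log2 fold with its standard error (SE).

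In unstressed cells the transcription factor p53 is kept low by the ubiquitin ligase MDM2. DNA breaks activate the kinases ATM and CHK2, which stabilise p53. It then binds a pair of short sites in DNA and raises genes for cell-cycle arrest, apoptosis, repair and metabolism, along with genes such as Mdm2 that restrain it. A difference of responses therefore singles out genes whose change after damage depended on the genotype, and leaves out changes of equal size in both.

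The wild-type libraries held 9768158 to 11770448 reads and the p53-null libraries 18099506 to 25970157, so every p53-null library was deeper. Summed fibroblast markers stood at 6278 to 9857 CPM in the wild-type libraries and lower, at 4505 to 5491 CPM, in the p53-null libraries. The 4 Y-linked markers stood at 9.49 CPM in untreated p53-null library 2 and at 0.472 CPM in treated p53-null library 2, and Xist at 0.659 and 12.5 CPM. These 2 libraries share a number but not a pattern of sex markers. The number of calls is given below with and without them, and the other results include them. The p53-null libraries numbered 1 held 9.94 CPM untreated and 5.15 CPM treated of the Y-linked markers, and 1.06 and 1.1 CPM of Xist. Within wild type the libraries numbered 1 held 19.8 and 13.7 CPM of the Y-linked markers, and the other 4 libraries under 1. Xist stood at 7.73 to 27.1 CPM in the wild-type libraries. The pattern of sex markers thus went in part with genotype, and its part in the differences was not tested.

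Promoters of 4 of the genes described here hold a p53 response element within the RefSeq promoter sequence, from 250 bases before to 50 after the start of the gene (build GRCm38.p6). The element was searched by its name, as 2 adjacent 10-base sites on either strand with both 4-base cores intact and at most 2 mismatches in the flanking bases. The 4 sequences are shown because each pairs an element with a response that was higher in wild type. Capitals mark the 20-base element, written 5' to 3' on the strand of the gene's own transcription.
Cdkn1a, chr17:29090903-29090972, + strand: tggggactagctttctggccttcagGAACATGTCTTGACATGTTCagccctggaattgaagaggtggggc
Ckap2, chr8:22185978-22186047, - strand: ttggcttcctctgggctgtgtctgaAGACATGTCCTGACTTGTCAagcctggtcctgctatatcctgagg
Rps27l, chr9:66946271-66946340, + strand: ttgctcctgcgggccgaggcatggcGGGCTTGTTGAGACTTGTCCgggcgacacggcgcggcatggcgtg
Zfp365, chr10:67912681-67912750, - strand: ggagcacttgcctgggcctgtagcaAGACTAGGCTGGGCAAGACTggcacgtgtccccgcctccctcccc
The Cdkn1a and Rps27l elements had 1 mismatch each, and the Ckap2 and Zfp365 elements 2 each. Such a match stood in 0.158% of the 32851 promoters of the table. Symbols of 158 of the 211 genes with a higher wild-type response matched a promoter (74.9%), and 4 of the 158 held the element (2.53%). Among the 50 with the lower response 41 matched (82%) and 0 held it. Over all genes tested 8880 matched (79.4%) and 17 held it (0.191%). The rule for the element was set after the promoters were seen and unmatched genes are missing. These shares are a description and were not tested. A match describes letters in this window and shows no binding.

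Of 11177 genes tested, 261 (2.34%) differed in their response to doxorubicin between genotypes at an adjusted p under 0.05 (limma, Benjamini-Hochberg). The wild-type response was the higher one for 211 genes (1.89%) and the lower one for 50 (0.447%). The 211 had a median wild-type response of 2.35 and a median p53-null response of -0.13. The 50 had medians of -1.06 and 0.53. Over all genes tested the median wild-type response was 0.05 and the median p53-null response -0.07. In wild type alone 1406 genes (12.6%) passed, and in p53-null cells 0, where 1255 had an unadjusted p under 0.05 and the smallest adjusted p was 0.353. With limma-voom weights the p53-null count was also 0 and the difference was called for 205 genes.

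The number of calls rests on the libraries used. Leaving out 1 p53-null library at a time left 38 calls without untreated replicate 1, 51 without untreated replicate 2, 70 without treated replicate 1 and 86 without treated replicate 2. Leaving out untreated wild-type replicates 2 or 3, or treated wild-type replicate 1, left 99, 101 and 159. Without both p53-null libraries numbered 2 there were 0 calls (1434 genes at an unadjusted p under 0.05, smallest adjusted p = 0.116), and without both numbered 1 also 0 (838 genes, 0.0752), each with 1 library per p53-null group. Treating the wild-type replicate numbers as pairs gave 867 calls (7.76%), 585 higher (5.23%) and 282 lower (2.52%). Pairing p53-null numbers too gave 1076 (9.63%). The 261 genes kept the sign of their difference in every one of these fits in which they were tested, and 35 of them, all with the higher response in wild type, were called in each of the 10 fits that left out 1 library.

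**Figure D1:**
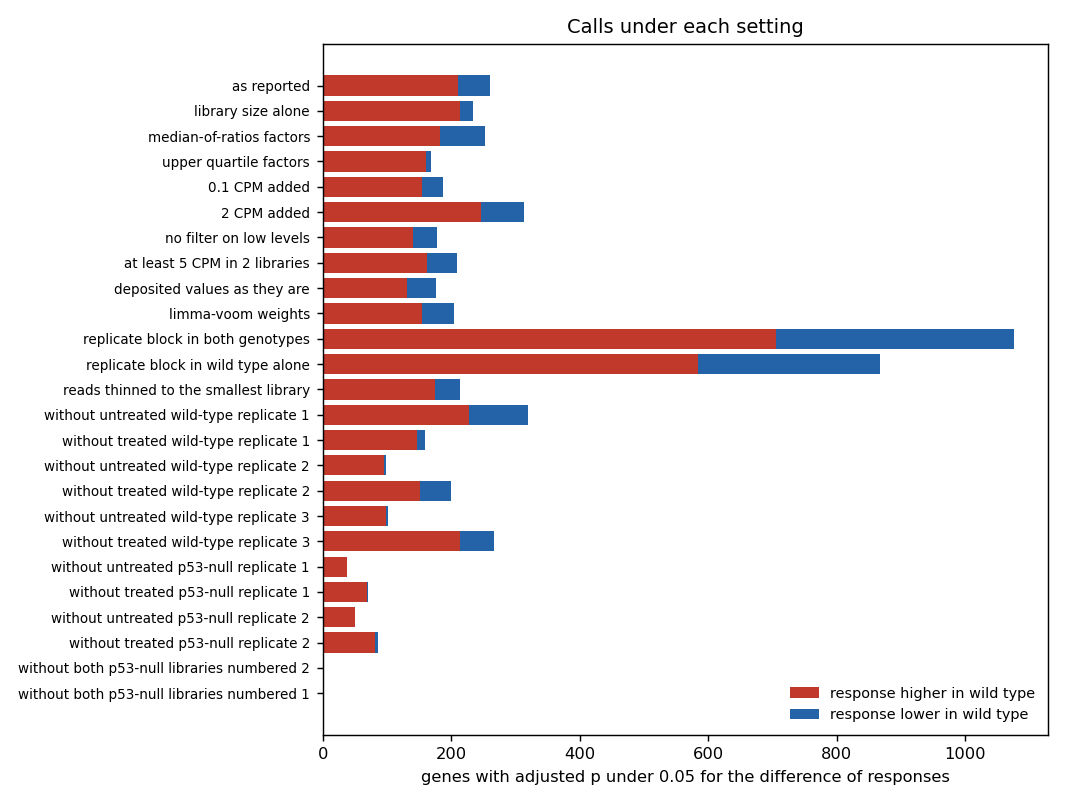
Number of genes called for the difference of responses under each setting, split into those with a higher (red) and a lower (blue) wild-type response. The bar as reported holds 211 and 50 genes, the bars with a replicate block are the longest, and those without both p53-null libraries of 1 number are empty.

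**Figure D2:**
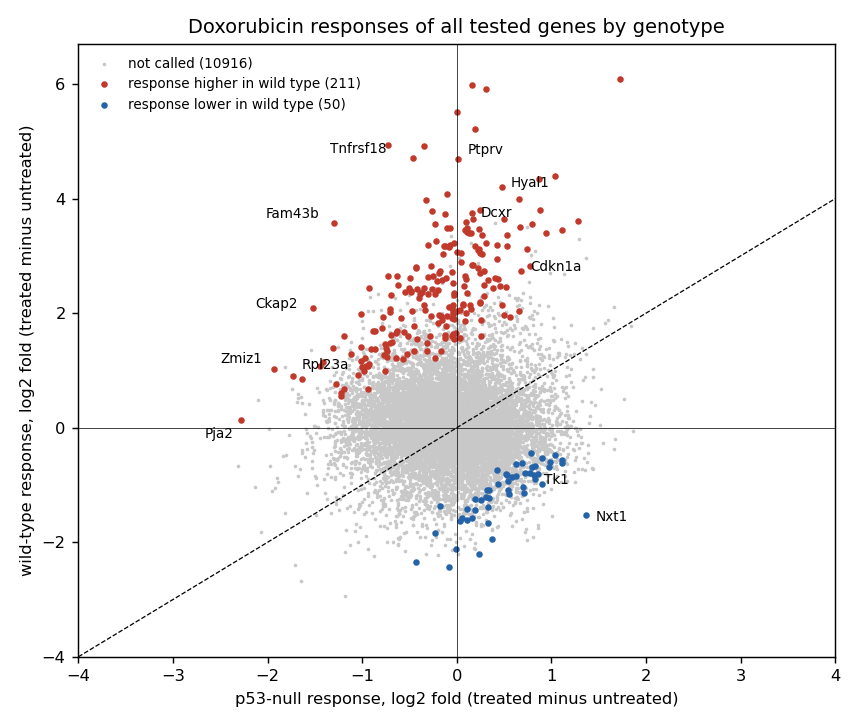
Wild-type response (vertical axis) against p53-null response (horizontal axis) of the 11177 genes tested, both as log2 folds, with equal responses on the dashed line. Red points are the 211 genes with a higher and blue points the 50 genes with a lower wild-type response; most red points lie high above a p53-null fold near 0, while the blue ones lie to the lower right.

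Cdkn1a, encoding the cell-cycle inhibitor p21, was higher in wild type before treatment (gap 4.46) and more so after it (6.51). Untreated wild-type libraries 1, 2 and 3 held 559, 754 and 745 CPM and treated ones 4443, 5096 and 4071 CPM. The untreated p53-null libraries held 31.5 and 29.3 CPM and the treated ones 53.9 and 44.4 CPM. All treated wild-type libraries stood above all untreated ones, and both treated p53-null libraries above both untreated ones. The wild-type response was 2.73 (SE 0.18), the p53-null response 0.68 (SE 0.22) and the difference 2.05 (SE 0.29, adjusted p = 0.00709). Cdkn1a carries the element shown above.

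Mdm2 stood at 148, 191 and 228 CPM in untreated and at 1078, 1159 and 1907 CPM in treated wild-type libraries. The p53-null libraries held 51.2 and 48 CPM untreated and 63.8 and 48.7 CPM treated. Wild-type groups did not overlap and every p53-null library lay below them. The difference was 2.67 (SE 0.40, adjusted p = 0.00898). Ccng1, encoding cyclin G1, another feedback gene of p53, had a difference of 3.30 (SE 0.44, adjusted p = 0.00497). It rose from 5, 5.21 and 5.51 CPM to 37.7, 54.9 and 63.8 CPM in wild type, against 3.02 and 2.59 CPM untreated and 3.15 and 1.98 CPM treated in p53-null cells. Among 12 tested genes of p53 and its feedback regulators, Mdm2 and Ccng1 were called higher (16.7%, against 1.89% of all genes) and 0 lower. The median difference of the 12 was 0.80, against 0.13 over all genes tested. Trp53 itself was not called, at 1.41 (SE 0.41, adjusted p = 0.0976). Its reads were present in the cells labelled p53-/-, at 69.6 and 74.2 CPM untreated and 29.5 and 44.1 CPM treated. Wild-type libraries held 24.3, 25.2 and 20.1 CPM untreated and 29.4, 23.9 and 43.4 CPM treated. Untreated wild-type cells thus had the lower level (gap -1.62, SE 0.29, adjusted p = 0.00536, limma). The treated gap was -0.20 (SE 0.29) and did not pass. Reads of 3' ends cannot test a deletion in another part of the gene.

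The targets of cell-cycle arrest had 4 of 15 tested members called higher (26.7%, against 1.89% of all genes) and 0 lower. Their median difference was 1.57. Ptprv, a receptor-type tyrosine phosphatase gene, had the largest difference of the list. It stood at 3.1, 2.6 and 3.15 CPM in untreated and 103, 89.6 and 74.9 CPM in treated wild-type libraries, and at 0.308 to 0.48 CPM in all 4 p53-null libraries. The wild-type groups lay far apart and the p53-null ones overlapped. The difference was 4.68 (SE 0.40, adjusted p = 0.000847). Btg2, an antiproliferative gene, had 2.56 (SE 0.37) and Zfp365, a zinc-finger gene whose promoter sequence is shown above, 3.49 (SE 0.52). Zfp365 was low, with 14 wild-type reads before and 255 after treatment.

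Among the targets of apoptosis 9 of 24 tested members were called higher (37.5%, against 1.89% of all genes) and 0 lower. This share was the largest of any p53 list as reported, but not with both genotypes paired. There it was 54.2%, against 66.7% for the targets of cell-cycle arrest. The median difference of the apoptosis targets was 1.92. Bbc3, encoding the BH3-only protein PUMA, stood at 5.59, 4.58 and 6.97 CPM untreated and at 24.3, 39.2 and 37.6 CPM treated in wild type. In p53-null cells it stood at 4.9 and 3.65 CPM untreated and at 2.84 and 2.8 CPM treated, so treated libraries lay above untreated ones in wild type and below them in p53-null cells. The difference was 2.96 (SE 0.44, adjusted p = 0.00878). Pmaip1, encoding the BH3-only protein NOXA, counted 1 read over the wild-type libraries before and 110 after treatment, which scaled for depth is a ratio of 100 (95% counting interval 17.6 to 4000). In p53-null cells 10 and 15 reads gave a ratio of 1.12 (0.472 to 2.80). The fitted difference of Pmaip1 was 2.85 (SE 0.36, adjusted p = 0.00432), and that of the death receptor gene Fas, with 3 reads in untreated wild type and 58 in treated, was 2.12 (SE 0.33). Both fits depend on the 0.5 CPM added before the log. Bax, encoding a mitochondrial pore protein of apoptosis, was not called (1.22, SE 0.48, adjusted p = 0.187), although its wild-type response passed. Of 19 tested genes of the BCL-2 family and the caspases outside the p53 lists, 0 were called, with a median difference of 0.23. For them the count was also 0 with wild-type numbers paired and with limma-voom. An unadjusted p under 0.05 was found for 3 of the 19, against 2357 of the 11177 genes tested.

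Ckap2, encoding a microtubule-associated protein and listed among the apoptosis targets, had a difference of 3.62 (SE 0.49, adjusted p = 0.00562) built from folds of opposite sign. It stood at 6.07, 4.58 and 3.71 CPM in untreated and at 24.9, 23 and 17.9 CPM in treated wild-type libraries. The untreated p53-null libraries held 50 and 47.1 CPM and the treated ones 11.3 and 24.3 CPM. Untreated p53-null cells thus had the highest level of the 4 groups, and 1 treated p53-null library lay within the range of the treated wild-type ones and the other below it. The wild-type response was 2.10 (SE 0.31) and the p53-null response -1.52 (SE 0.38). Both Ckap2 and Cdkn1a carry an element, and their untreated levels stood in opposite order between genotypes.

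Genes of metabolism and autophagy had 7 of 26 tested members called higher (26.9%, against 1.89% of all genes) and 0 lower. Their median difference was 1.52. Dcxr, encoding L-xylulose reductase, stood at 58.9, 75.6 and 94 CPM in untreated and 969, 1297 and 826 CPM in treated wild-type libraries. The p53-null libraries held 24.4 and 17.6 CPM untreated and 30 and 18 CPM treated, with overlapping groups. The difference was 3.59 (SE 0.43, adjusted p = 0.0037). Ddit4, an inhibitor of mTORC1 signalling, had 2.88 (SE 0.40), Aldh4a1, an enzyme of proline breakdown, 3.28 (SE 0.48) and the lipin gene Lpin1 2.73 (SE 0.41). Sesn2, encoding the stress-induced protein sestrin 2, was called at 3.01 (SE 0.57, adjusted p = 0.0274). It is also on the list of the unfolded protein and integrated stress responses. There it was the 1 gene called of 40 (2.5%, against 1.89% of all genes called higher).

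Targets at the cell surface or secreted had 5 of 17 tested members called higher (29.4%, against 1.89% of all genes) and 0 lower. Their median difference was 0.95. Hyal1, a hyaluronidase gene, stood at 3.81, 5.48 and 3.26 CPM untreated and at 67, 119 and 74 CPM treated in wild type, and at 6.14 and 6.63 CPM untreated and 11.3 and 7.26 CPM treated in p53-null cells. Treated libraries lay above untreated ones in both genotypes, by far more in wild type. The difference was 3.72 (SE 0.48, adjusted p = 0.0045). Tnfrsf18, encoding the TNF receptor family member GITR, counted 12 wild-type reads before and 746 after treatment, with a difference of 5.17 (SE 0.44). The secreted stress cytokine gene Gdf15 had 3.32 (SE 0.48) and the sulfatase gene Sulf2 3.24 (SE 0.48).

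The DNA repair targets had 1 of 14 tested members called higher (7.14%, against 1.89% of all genes) and 0 lower. Their median difference was 0.22, close to that of all genes. The 1 called gene was Rps27l, encoding a ribosomal protein S27-like protein. It stood at 17.3, 22.5 and 29 CPM untreated and 41.7, 57.5 and 60.3 CPM treated in wild type, against 45.1 and 49.2 CPM and 30.5 and 29.5 CPM in p53-null cells. Treated libraries lay above untreated ones in wild type and below them in p53-null cells, with a difference of 1.85 (SE 0.38, adjusted p = 0.0358). Rps27l shares sequence with Rps27, so its reads are uncertain.

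Over the 6 p53 lists together, 28 of 108 tested members (25.9%) were called higher and 0 lower, against 1.89% and 0.447% of all genes tested. The median difference was 1.17. The lists were drawn from known p53 targets with earlier results of these data in view, so this count is no independent evidence of its direction. The 28 became 44 higher and 2 lower with wild-type numbers paired. Without 1 library at a time they ranged from 5, without untreated p53-null replicate 1, to 32, without untreated wild-type replicate 1, and they were 10, 13 and 16 without untreated replicate 2, treated replicate 1 and treated replicate 2 of the p53-null cells.

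**Figure D3:**
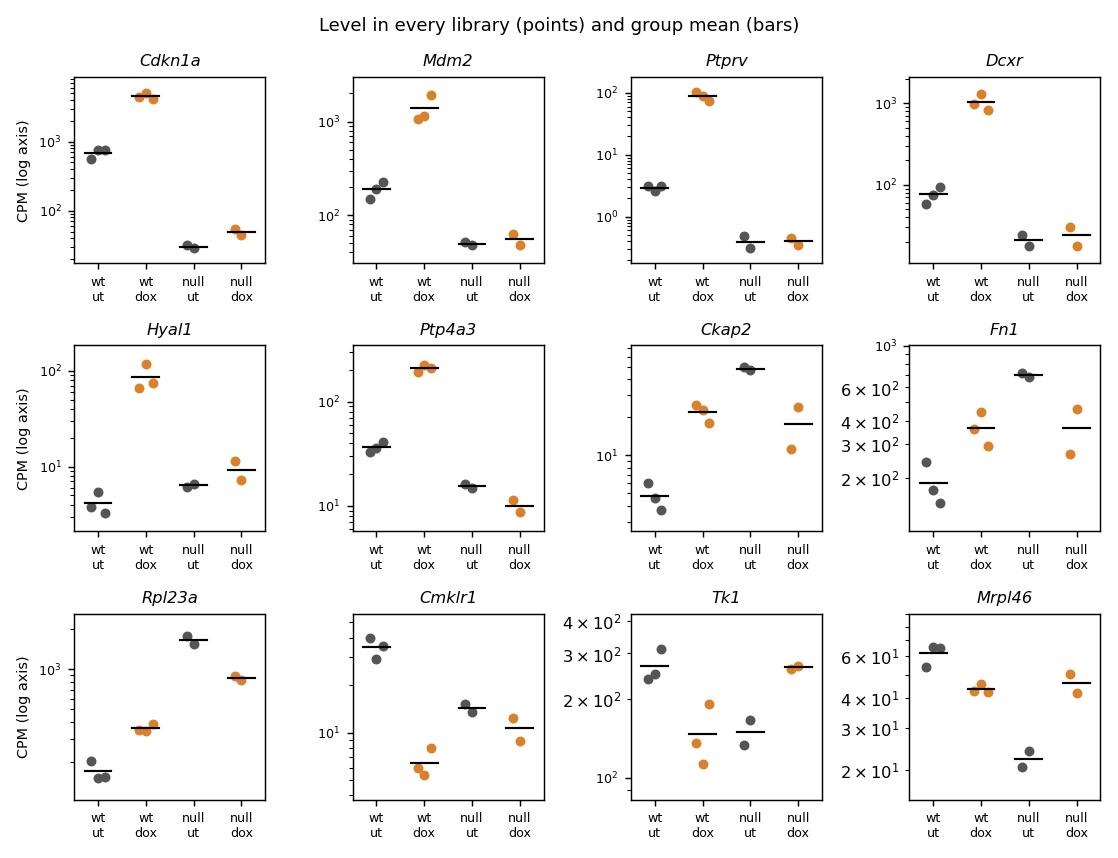
CPM of 12 genes in every library (points, log axis, a separate range for each gene) and the group mean (bars), for untreated (ut, grey) and doxorubicin-treated (dox, orange) wild-type (wt) and p53-null (null) cells. Treated wild-type libraries stand apart for Ptprv, Dcxr and Hyal1, and untreated p53-null libraries are the highest for Ckap2, Fn1 and Rpl23a.

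Outside the p53 lists, the largest differences among genes with an average log2 CPM of 3 or more included Scx, the gene of a tendon transcription factor, at 3.57 (SE 0.49), and Iffo1, an intermediate filament family gene, at 3.24 (SE 0.44). Cox6b2, encoding the testis form of a cytochrome c oxidase subunit, had 3.14 (SE 0.57). It was the 1 called gene among 75 of oxidative phosphorylation (1.33%, against 1.89% of all genes called higher), whose median difference was -0.05. 4432412L15Rik, which RefSeq names Palm3, had 3.35 (SE 0.75, adjusted p = 0.0497) and 9030607L17Rik 2.89 (SE 0.34). Ptp4a3, encoding the phosphatase PRL-3, stood at 32.9, 36.2 and 41.2 CPM untreated and at 191, 226 and 210 CPM treated in wild type. The p53-null libraries held 16.3 and 14.8 CPM untreated and 11.4 and 8.68 CPM treated. Neither genotype overlapped between treatments, and the difference was 3.12 (SE 0.31, adjusted p = 0.00134). The p53-null change of Ptp4a3 did not pass alone. Ass1, encoding argininosuccinate synthase, a step of arginine synthesis, stood at 23.7, 17.5 and 16.5 CPM untreated and at 124, 119 and 115 CPM treated in wild type. In p53-null cells it stood at 53.1 and 39.3 CPM untreated and 38.8 and 26.7 CPM treated. Wild type was the lower genotype when untreated and the higher when treated, with a difference of 3.12 (SE 0.36, adjusted p = 0.00302).

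Some of the largest differences belonged to genes with few reads outside treated wild type. Brunol5, an RNA-binding protein gene that RefSeq names Celf5, stood at 0.833, 0.269 and 0.674 CPM untreated and at 64.6, 65.6 and 61.1 CPM treated in wild type, and at 0.336 to 0.682 CPM in the p53-null libraries. The difference was 5.61 (SE 0.44, adjusted p = 0.000847). Sytl1, a synaptotagmin-like gene, had 5.67 (SE 0.48), 1700007K13Rik 5.51 (SE 0.50) and Kcnj4, a potassium channel gene, 5.03 (SE 0.46). Of the 211 genes, 72 had an average log2 CPM under 1, and 22 had 3 reads or fewer over the untreated wild-type libraries. Of the 50 genes with the lower wild-type response, 0 had an average log2 CPM under 1 and 46 had 3 or more. Folds of low genes are understated by the added 0.5 CPM.

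**Figure D4:**
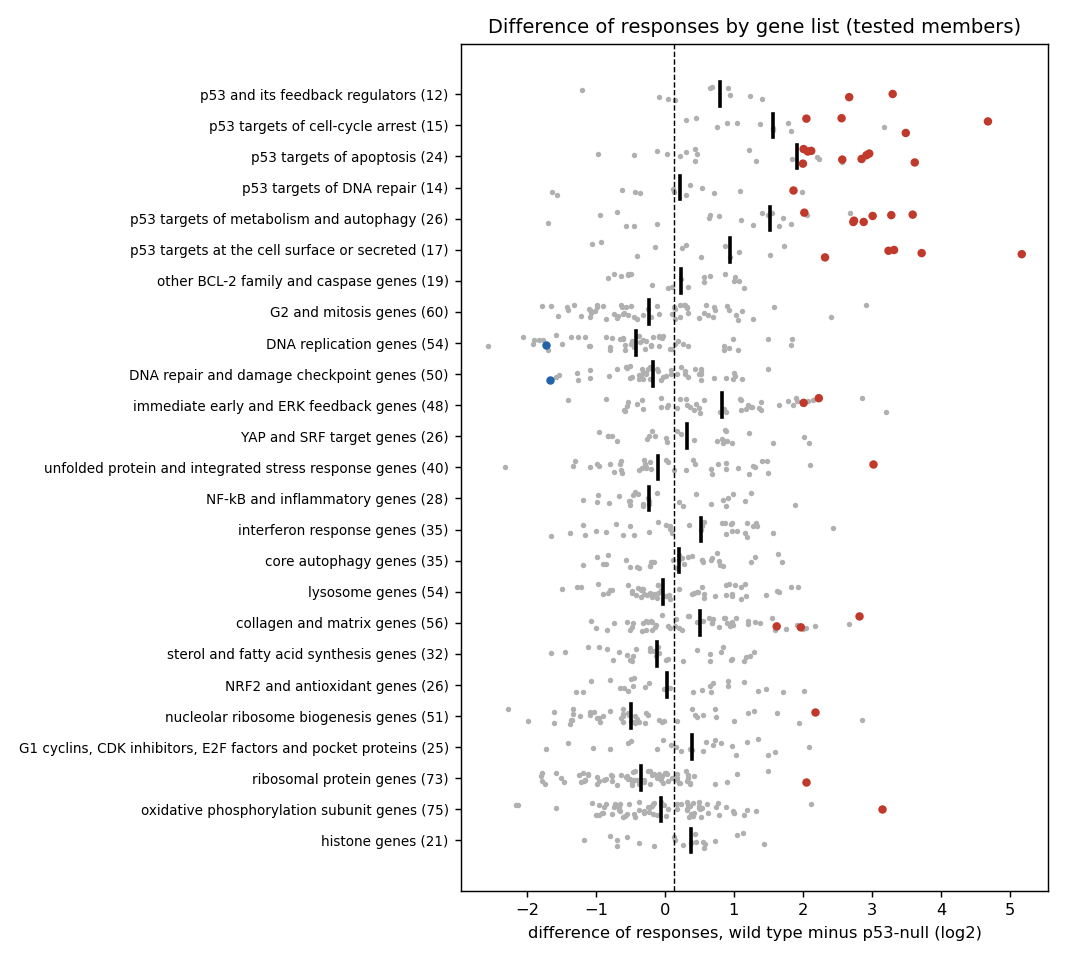
Difference of responses (horizontal axis, log2, wild type minus p53-null) of the tested members of each gene list, with the number tested in brackets. Red and blue points were called higher and lower in wild type, black bars are list medians and the dashed line is the median of all genes tested, 0.13.

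The difference of responses equals the genotype gap (wild type minus p53-null) in treated cells less the gap in untreated cells. Both gaps and both responses come from the same 10 libraries, so they are given side by side. An untreated gap passed for 3705 genes (33.1%) and a treated gap for 1349 (12.1%). Of the 211 genes with the higher wild-type response, 133 (63%) had a called gap in treated cells only, against 6.06% of all genes tested. The difference is made from the 2 gaps, so these classes follow in part from the selection and are given as a description. The 133 had a median untreated gap of 0.00 and a median treated gap of 2.57. Tnfrsf18, Brunol5, Sytl1 and Kcnj4 were of this kind. Another 30 had called gaps of the same sign in both states, with medians of 1.31 untreated and 3.71 treated. Cdkn1a, Mdm2, Ptprv, Ptp4a3, 1700007K13Rik and Psrc1 were among them, the last a spindle protein gene with an untreated gap of 1.52 and a treated gap of 4.30. For 8 genes the gap was called in both states with opposite signs, as for Ass1 (-1.24 and 1.87), Aldh4a1 (-1.60 and 1.68) and B830028B13Rik (-1.68 and 1.69), which RefSeq names Insyn2a.

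The remaining 40 genes (19%) had a called gap in untreated cells only, a share below the 27.1% of all genes tested. Their untreated wild-type level was the lower one, a sign that a positive difference with no called treated gap nearly fixes. Their median untreated gap was -1.92 and their median treated gap 0.50, with a median response of 1.37 in wild type and -0.92 in p53-null cells. Tmem63b, encoding an ion channel, stood at 50.6, 43.3 and 24.7 CPM untreated and at 171, 172 and 133 CPM treated in wild type, and at 104 and 118 CPM and 76.1 and 82.6 CPM in p53-null cells. Wild type lay below p53-null cells when untreated and above them when treated, with a difference of 2.52 (SE 0.41, adjusted p = 0.0143). Fzd10, a WNT receptor gene, counted 1 wild-type read before and 60 after treatment, a ratio of 54.7 (95% counting interval 9.45 to 2200), and 69 and 67 reads in p53-null cells. Sh3bp1, encoding a GTPase-activating protein, had a difference of 2.65 (SE 0.47). The size of this class depends on the libraries and on the scaling. It was 0 without untreated p53-null replicate 1 or 2, 2 and 12 without treated p53-null replicates 1 and 2, 5 and 4 without untreated wild-type replicates 2 and 3, 17 and 15 without treated wild-type replicates 1 and 2, and 59 without untreated wild-type replicate 1. Library size alone gave 40 genes, median-of-ratios factors 31 and upper quartile factors 22. These settings moved the median untreated gap of all genes from -0.09 to -0.43, 0.00 and -0.24. Depth went with genotype in every gap. With the reads of every library thinned to the smallest total the class held 28 of 175 genes.

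**Figure D5:**
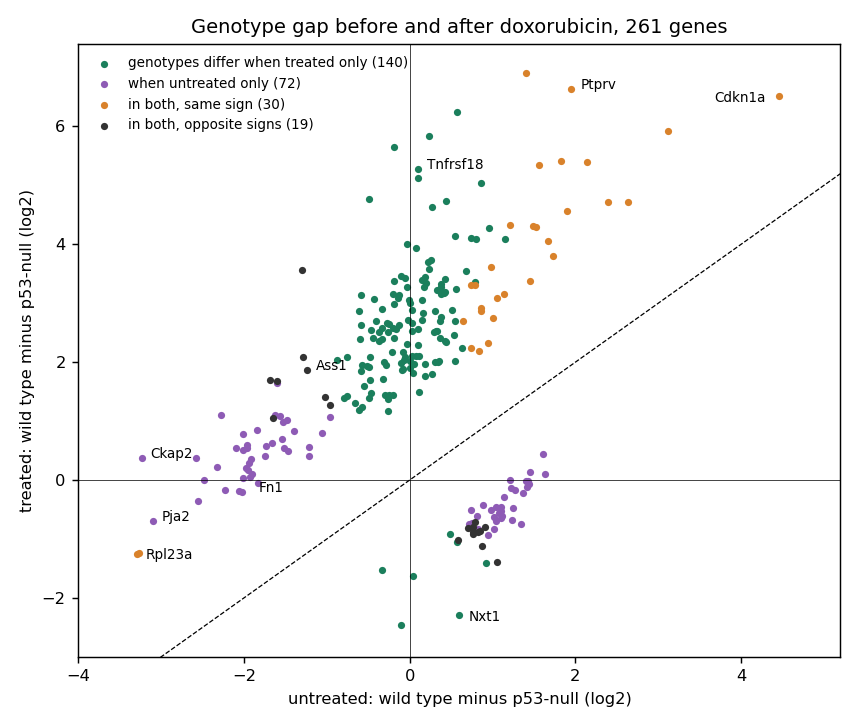
Genotype gap (wild type minus p53-null, log2) of the 261 called genes in untreated (horizontal axis) and treated cells (vertical axis), with equal gaps on the dashed line. Colours give where the gap itself was called: 140 in treated cells only, 72 in untreated cells only, 30 in both with the same sign and 19 in both with opposite signs.

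Responses of 10 of the 211 genes did not pass in wild type. The p53-null responses did not pass either (smallest adjusted p over all genes 0.353, limma) and rest on 2 libraries per group. For the 6 genes below the fitted p53-null fold was the larger in size. Pja2, a ubiquitin ligase gene, stood at 2.86, 2.16 and 1.69 CPM untreated and 2.33, 2.42 and 2.57 CPM treated in wild type, and at 28.8 and 17.7 CPM untreated and 3.56 and 5.03 CPM treated in p53-null cells. The wild-type groups overlapped and the p53-null groups lay far apart. The difference was 2.41 (SE 0.46, adjusted p = 0.0291), with a wild-type response of 0.13 (SE 0.29) and a p53-null response of -2.28 (SE 0.36). Zmiz1, a transcriptional coregulator gene, had a wild-type response of 1.03 (SE 0.34), a p53-null response of -1.93 (SE 0.41) and a difference of 2.96 (SE 0.54). Clip2, a microtubule-linker gene, had p53-null and wild-type responses of -1.73 (SE 0.41) and 0.91 (SE 0.34), and Rasa1, encoding a RAS GTPase-activating protein, -1.28 (SE 0.34) and 0.77 (SE 0.28). Rere (1.82) and Itpripl2 (1.78) had smaller differences of the same kind. The untreated p53-null level was the highest of the 4 groups for each of these 6 genes.

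For 20 of the 211 genes the p53-null fold was opposite to the wild-type one and beyond 1 in size. This count follows in part from the selection on the difference, and its share over all genes was not computed. Zfpm1, encoding the GATA cofactor FOG1, stood at 26.9, 41.1 and 37.5 CPM untreated and at 84.4, 96.9 and 75.5 CPM treated in wild type, and at 54.5 and 43.6 CPM and 25.7 and 19.1 CPM in p53-null cells. The groups did not overlap in either genotype and the difference was 2.41 (SE 0.36, adjusted p = 0.00898). Fam43b had 4.87 (SE 0.60) and Wasl, an actin nucleation gene encoding N-WASP, 2.55 (SE 0.50). Wild type and p53-null cells shared a sign with a p53-null fold beyond 1 for 4 of the 211.

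Of the 50 genes with the lower wild-type response, 32 (64%) had a genotype gap called in untreated cells only, 11 (22%) in both states with opposite signs and 7 (14%) in treated cells only. Over all genes tested these classes held 27.1%, 0.17% and 6.06%. A negative difference largely fixes the sign of the untreated gap in the first pair of classes, and no test compared the classes of the 50 with those of the 211. The counts depend on the scaling. In the same order they were 4, 6 and 11 under library size alone, 49, 14 and 8 under median-of-ratios factors and 1, 2 and 5 under upper quartile factors. The number of genes with a lower wild-type response was 21, 71 and 8 under these settings, and the share of calls that were higher was 91%, 71.9% and 95.3% against 80.8% as reported. They also depend on single libraries. The class with a gap in untreated cells only held 0 genes without untreated p53-null replicate 1 or 2, treated p53-null replicate 1, or untreated wild-type replicate 2 or 3, 1 without treated p53-null replicate 2, 7 without treated wild-type replicate 1, and 66 without untreated wild-type replicate 1. The wild-type response did not pass for 6 of the 50. For 45 of the 50 the p53-null fold was above 0, and for 40 both treated p53-null libraries lay above both untreated ones. The 50 were selected on a difference that contains the p53-null change, so these counts follow in part from the selection. Shares over all genes were not computed for them.

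Tk1, the thymidine kinase gene of the nucleotide salvage pathway, stood at 240, 250 and 312 CPM untreated and 136, 113 and 192 CPM treated in wild type. It stood at 134 and 166 CPM untreated and 262 and 269 CPM treated in p53-null cells. Treated libraries lay below untreated ones in wild type and above them in p53-null cells. The wild-type response was -0.89 (SE 0.22), the p53-null response 0.83 (SE 0.27) and the difference -1.72 (SE 0.35, adjusted p = 0.0359). Tk1 was the 1 called gene of 54 for DNA replication (1.85%, against 0.447% of all genes called lower), whose median difference was -0.41. With wild-type numbers paired 8 of the list were called lower (14.8%, against 2.52% of all genes). Mutyh, a base excision repair glycosylase gene, had -1.66 (SE 0.36, adjusted p = 0.0447). It was the 1 called of 50 for DNA repair and damage checkpoints (2.0%, against 0.447% of all genes called lower). Dhodh, of pyrimidine synthesis, had -2.32 (SE 0.47). Nsmce4a, encoding a subunit of the SMC5/6 complex, had -1.74 (SE 0.34), and Apitd1, encoding the centromere protein CENP-S, -1.71 (SE 0.32).

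Cmklr1, the chemerin receptor gene, stood at 39.6, 29.4 and 35.4 CPM untreated and at 5.98, 5.39 and 8.03 CPM treated in wild type, and at 15.3 and 13.4 CPM untreated and 12.5 and 8.81 CPM treated in p53-null cells. Treated libraries lay below untreated ones in both genotypes, by more in wild type. The difference was -1.91 (SE 0.39, adjusted p = 0.0374). 2810433K01Rik had -2.0 (SE 0.33), the selenophosphate synthetase gene Sephs1 -1.74 (SE 0.35) and Tbl2 -1.71 (SE 0.32).

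Mrpl46, encoding a mitochondrial ribosomal protein, stood at 54, 65.8 and 65.3 CPM untreated and 43.1, 46.1 and 42.6 CPM treated in wild type, and at 20.7 and 24 CPM untreated and 50.9 and 42.1 CPM treated in p53-null cells. In treated cells the genotypes overlapped, and the difference was -1.52 (SE 0.29, adjusted p = 0.0291). Nxf1, encoding the mRNA export receptor, had -1.58 (SE 0.34) and its partner gene Nxt1 -2.89 (SE 0.64, adjusted p = 0.0489). Ftsj2, a mitochondrial ribosomal RNA methyltransferase gene that RefSeq names Mrm2, had -1.73 (SE 0.34) and the transfer RNA methyltransferase gene Trmt2a -1.21 (SE 0.27). Exosc8, encoding a subunit of the RNA exosome, had -1.88 (SE 0.40, adjusted p = 0.0446). Ciapin1, of cytosolic iron-sulfur cluster assembly, had -1.43 (SE 0.31), the endonuclease gene Ankle1 -1.67 (SE 0.37) and the CAAX protease gene Rce1 -1.85 (SE 0.34).

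Genes of the nucleolus had 1 of 51 tested members called higher (1.96%, against 1.89% of all genes) and 0 lower, with a median of -0.49. The 1 was Rrn3, encoding an initiation factor of RNA polymerase I, at 2.18 (SE 0.45, adjusted p = 0.0382). With wild-type numbers paired 8 of the list were called lower (15.7%, against 2.52% of all genes) and 1 higher (1.96%, against 5.23%). Of 60 genes of G2 and mitosis 0 were called by limma or limma-voom. An unadjusted p under 0.05 was found for 15 of them, against 2357 of the 11177 genes tested. Their median difference was -0.23, with the smallest p at Espl1, the separase gene (-1.55, SE 0.35, adjusted p = 0.053). With wild-type numbers paired 5 were called lower (8.33%, against 2.52% of all genes) and 1 higher (1.67%, against 5.23%). The ribosomal protein genes had 1 of 73 called higher (1.37%, against 1.89% of all genes), Rpl23a, and a median of -0.34. Rpl23a stood at 205, 153 and 155 CPM untreated and 349, 343 and 386 CPM treated in wild type, and at 1786 and 1554 CPM and 889 and 828 CPM in p53-null cells. The 4 groups did not overlap. Its difference was 2.04 (SE 0.27, adjusted p = 0.0051), and its value is uncertain because near-identical copies of this gene could share its reads.

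Matrix genes had 3 of 56 called higher (5.36%, against 1.89% of all genes) and 0 lower, with a median of 0.51. Fn1, encoding fibronectin, stood at 242, 171 and 146 CPM untreated and 363, 444 and 295 CPM treated in wild type, and at 713 and 680 CPM untreated and 267 and 462 CPM treated in p53-null cells. Neither genotype overlapped between treatments, and the treated genotypes overlapped. The difference was 1.97 (SE 0.42, adjusted p = 0.0426). Tnc, encoding tenascin C, had 1.62 (SE 0.35, adjusted p = 0.0471), and Mmp15, a membrane-type matrix metalloproteinase gene, 2.82 (SE 0.42, adjusted p = 0.00878). With wild-type numbers paired 11 of the list were called higher (19.6%, against 5.23% of all genes). Immediate early and ERK feedback genes had 2 of 48 called higher, Spred2 (2.01, SE 0.39) and Dusp6 (2.23, SE 0.50), both feedback inhibitors of ERK signalling. These were 4.17% of the list, against 1.89% of all genes. The median of that list was 0.82, with a median response of 0.27 in wild type and -0.48 in p53-null cells, and 13 were called higher (27.1%, against 5.23% of all genes) and 1 lower (2.08%, against 2.52%) with the numbers paired.

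No call was made among 35 interferon response genes (median 0.52), 35 core autophagy genes (0.20), 54 lysosome genes (-0.02), 26 YAP and SRF targets (0.33), 28 NF-kB and inflammatory genes (-0.23), 32 genes of sterol and fatty acid synthesis (-0.11), 26 NRF2 targets (0.04), 25 G1 regulators (0.39) or 21 histone genes (0.38). With wild-type numbers paired these lists had between 1 and 4 members called each, while 7.76% of all genes were called. Of their 282 members 57 had an unadjusted p under 0.05, against 2357 of the 11177 genes tested. The limma-voom fit called 0 of the 282. The medians of the lysosome, NRF2 and oxidative phosphorylation lists changed sign under at least 1 scaling.

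Of 13 tested fibroblast markers 0 were called as reported. Pairing the wild-type numbers gave 2 of the 13 called higher (15.4%, against 5.23% of all genes) and 0 lower. Of the tested markers of other cell types 0 were called as reported. With wild-type numbers paired the neural gene Sox10 was called lower (-1.41, limma adjusted p = 0.0385). It was 1 of 6 tested neural markers (16.7%, against 2.52% of all genes called lower). No endothelial, epithelial, muscle, or cartilage and fat marker was called with these numbers paired. Wild-type libraries numbered 1 stood apart from the other wild-type libraries in both states. Their summed cartilage and fat markers held 397 and 408 CPM, against 69 to 147 CPM in the other wild-type libraries. The p53-null libraries held 460 to 813 CPM of these markers, above every wild-type library. Epithelial markers held 176 and 223 CPM in wild-type libraries numbered 1, against 55.6 to 142 CPM in the other wild-type libraries. The p53-null libraries held 99.9 to 137 CPM of them. The part of these levels in the differences was not tested. Of 14 tested macrophage and blood markers 0 were called by limma or limma-voom, and 0 had an unadjusted p under 0.05. With wild-type numbers paired 2 of the 14 were called lower (14.3%, against 2.52% of all genes). These markers had a median difference of -0.99 and a median wild-type response of -1.08. Their summed level was 106, 548 and 605 CPM in untreated and 49.4, 236 and 266 CPM in treated wild-type libraries, and 91.8 to 134 CPM in the p53-null libraries. The treated wild-type level was lower within each number, but the range of the 2 groups overlapped, and their part in the lower responses was not tested. In these bulk libraries fewer cells of a type and less RNA per cell cannot be told apart.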

How the data were processed

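Each deposited RNA file lists 20207 gene symbols with 1 value each, on a scale close to log2 and with the shape of variance-stabilised values. Per the submitters' processing notes the authors used DESeq (no version) and mouse build mm9. Aligner, strand and annotation were not given in the sources used here, so reads of a gene and its antisense partner cannot be told apart. The peak list of the series was not used here. Whole reads were recovered by walking along the curve common to all 10 libraries. Beyond the first 250 reads this placed 22112 values, of which 99.93% fell no farther than 0.01 from a whole number. The other 16 belonged to counts of 148385 or more.

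A gene was tested when 2 or more libraries held at least 1 CPM of it (11177 genes). Library sizes were adjusted by trimmed mean of M values scaling (30% and 5% trimmed). The log2 of CPM with 0.5 added was modelled by limma 3.58.1 with its trend option in R 4.3.3, as 1 mean per group, two-sided. Adjustment over all genes was by Benjamini and Hochberg with a threshold of 0.05. Counting intervals are exact at 95% and cover counting error only, because no molecular identifiers separate copies of 1 molecule. The code was tested on simulated data, and no gene list was tested.

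Same-numbered untreated and treated libraries deviated together in wild type (correlations of 0.581, 0.342 and 0.611 over genes), so these numbers were taken as pairs in an alternative. The p53-null numbers gave 0.385 for both pairs, which 2 libraries per group force to be equal, and the libraries numbered 2 differ in sex markers. Their pairing is therefore a further alternative only.

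The comparison, the gene lists and the naming rule were chosen with earlier results of these data known. The rule took a panel of 7 genes, the 12 largest differences in each direction at an average log2 CPM of 3 or more, up to 4 members of each of 33 lists, and up to 6 genes per direction without a wild-type call or with an opposite p53-null fold beyond 1. It also took 4 genes per class of genotype gap. Of the 92 genes it names, 71 were called; 1 of these is not reported here. The rule for the p53 element was set after the promoters were seen. Alternatives varied the scaling, the added CPM, the filter, the values fitted, the spread model, the depth, the pairing and the libraries used.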

Additional observations from a re-analysis of the deposited data

Results flagged for a closer look

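The difference between genotypes is the measure of this comparison, so each call in it met the condition for a closer look, which was a tested difference of the effect of doxorubicin between 2 groups. It was met by 261 genes, 211 with the higher response in wild type and 50 with the lower. Groups of 2 or 3 libraries are too small for a test of single outlying libraries. Among the genes named, the differences of responses on the log2 scale, with 0.5 CPM added, included Sytl1 (5.67), Brunol5 (5.61), 1700007K13Rik (5.51), Tnfrsf18 (5.17), Kcnj4 (5.03), Fam43b (4.87), Ptprv (4.68), Hyal1 (3.72), Ckap2 (3.62), Dcxr (3.59), Scx (3.57), Zfp365 (3.49), B830028B13Rik (3.37), 4432412L15Rik (3.35), Gdf15 (3.32), Ccng1 (3.30). Others were Aldh4a1 (3.28), Iffo1 (3.24), Sulf2 (3.24), Cox6b2 (3.14), Ptp4a3 (3.12), Ass1 (3.12), Sesn2 (3.01), Zmiz1 (2.96), Bbc3 (2.96), 9030607L17Rik (2.89), Ddit4 (2.88), Pmaip1 (2.85), Mmp15 (2.82), Psrc1 (2.78), Lpin1 (2.73), Mdm2 (2.67). They also included Sh3bp1 (2.65), Clip2 (2.63), Btg2 (2.56), Wasl (2.55), Tmem63b (2.52), Fzd10 (2.50), Pja2 (2.41), Zfpm1 (2.41), Dusp6 (2.23), Rrn3 (2.18), Fas (2.12), Cdkn1a (2.05), Rpl23a (2.04), Rasa1 (2.04), Spred2 (2.01), Fn1 (1.97). The rest of this sign were Rps27l (1.85), Rere (1.82), Itpripl2 (1.78), Tnc (1.62). The size and order of these values depend on the 0.5 CPM added. The differences with the lower wild-type response were Nxt1 (-2.89), Dhodh (-2.32), 2810433K01Rik (-2.0), Cmklr1 (-1.91), Exosc8 (-1.88), Rce1 (-1.85), Sephs1 (-1.74), Nsmce4a (-1.74), Ftsj2 (-1.73), Tk1 (-1.72), Apitd1 (-1.71), Tbl2 (-1.71), Ankle1 (-1.67), Mutyh (-1.66), Nxf1 (-1.58), Mrpl46 (-1.52), Ciapin1 (-1.43), Trmt2a (-1.21).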

How the results depend on the processing

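The direction of all 261 calls was the same in every alternative in which the gene was tested. Their number was not: under upper quartile factors it was 169, with 8 genes lower in wild type, and library size alone gave 21 lower, an added 0.1 CPM 33 lower and the deposited values as they are 131 higher. The replicate block in wild type alone gave 867 calls (585 higher, 282 lower), and with both genotypes paired 1076 (706 and 370); each kept all 261. Of the 21 named genes without a call, 13 passed with the wild-type block, among them Vcl (2.01, adjusted p = 0.0311) and Fdft1 (-1.45, adjusted p = 0.0198). Leaving out 1 library gave 38 to 320 calls, 38 to 228 higher and 0 to 92 lower, and 16 of the 71 named calls stood in all 10 of these fits. A group left with 1 library was assumed to vary like the others. The fits chosen after seeing the data, without both p53-null libraries of number 1 or of number 2, gave 0 calls, 0 higher and 0 lower. The cause of these moves was not tested. Under all 8 alternatives of scaling, added CPM, deposited values, voom weights and thinned reads, 113 of the 261 were called, 108 higher and 5 lower (among them 2810433K01Rik, Cdca5, Nup85 and Slc29a2; Cdca5, Nup85 and Slc29a2 were chosen after their values were seen). Depth limits low genes most: 22 of the 211 had 3 or fewer untreated wild-type reads.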
